A study of Mus musculus with 7 samples.

Results

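The Schlafen genes Slfn1, Slfn2, Slfn3, Slfn4, Slfn5, Slfn8 and Slfn9 were taken by symbol from the gene list of the single-cell RNA-sequencing count matrices, giving 7 members of the 11 genes whose symbols start with Slfn. The libraries came from 7 subcutaneous allografts of JW23.3, a mouse malignant peripheral nerve sheath tumor (MPNST) cell line mutant for Nf1 and Trp53. JW23.3 cells had been implanted in the flanks of wildtype female C57/B6 mice aged 5 to 6 weeks, and tumors were taken on day 21. The 4 irradiated tumors received 5 daily fractions of 2 Gy with lead shielding over the rest of the animal, the 3 control tumors received none, and all tumors came from 1 cell line. The comparison of the groups asked which genes change after fractionated radiation in tumor and host cells.

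Schlafen proteins are a vertebrate family, many of whose members are induced by type I interferon. The short members, Slfn1 and Slfn2, are known for restraining lymphocyte growth, and loss of Slfn2 costs T cells and monocytes their quiescence. Slfn3 and Slfn4 are of intermediate length, and Slfn4 is known as an interferon-induced gene of myeloid cells. Slfn5, Slfn8 and Slfn9 are long members that carry a helicase-like region.

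All 7 genes lie in 1 cluster on chromosome 11, so neighboring members can share sequence. Promoters, 250 bases before to 50 bases after the start, were read from RefSeq (GRCm38.p6), and all 7 members matched. Shown are the promoters of Slfn1 and Slfn4 and of the long members Slfn8 and Slfn9, the pairs with the longest shared runs, with 2 motifs in capitals. The motifs are ACTTCCTGG, which holds the core bound by Ets factors, and a form of the interferon-stimulated response element, GAAA and again GAAA with any 2 bases between them, both searched on both strands. The first motif was chosen after the members' promoters had been read.
Slfn1 (chr11:83116570-83116869, plus strand): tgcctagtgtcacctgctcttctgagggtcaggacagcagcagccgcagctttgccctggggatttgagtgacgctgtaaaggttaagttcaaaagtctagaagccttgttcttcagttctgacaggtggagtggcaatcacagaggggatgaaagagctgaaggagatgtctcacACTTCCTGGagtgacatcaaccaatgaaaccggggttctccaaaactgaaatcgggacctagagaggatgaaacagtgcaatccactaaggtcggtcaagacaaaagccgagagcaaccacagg
Slfn4 (chr11:83174936-83175235, plus strand): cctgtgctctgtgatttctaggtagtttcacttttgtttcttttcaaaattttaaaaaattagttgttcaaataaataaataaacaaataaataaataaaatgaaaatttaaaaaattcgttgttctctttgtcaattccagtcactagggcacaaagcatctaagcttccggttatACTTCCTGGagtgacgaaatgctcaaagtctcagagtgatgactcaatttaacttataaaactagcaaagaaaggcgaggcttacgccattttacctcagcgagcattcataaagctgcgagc
Slfn8 (chr11:83020761-83021060, minus strand): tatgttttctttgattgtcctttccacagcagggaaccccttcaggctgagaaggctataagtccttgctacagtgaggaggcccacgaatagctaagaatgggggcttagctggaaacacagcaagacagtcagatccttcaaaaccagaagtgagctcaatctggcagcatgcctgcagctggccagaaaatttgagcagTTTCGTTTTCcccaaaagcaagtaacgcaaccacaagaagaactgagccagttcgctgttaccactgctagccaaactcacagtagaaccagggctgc
Slfn9 (chr11:82991781-82992080, minus strand): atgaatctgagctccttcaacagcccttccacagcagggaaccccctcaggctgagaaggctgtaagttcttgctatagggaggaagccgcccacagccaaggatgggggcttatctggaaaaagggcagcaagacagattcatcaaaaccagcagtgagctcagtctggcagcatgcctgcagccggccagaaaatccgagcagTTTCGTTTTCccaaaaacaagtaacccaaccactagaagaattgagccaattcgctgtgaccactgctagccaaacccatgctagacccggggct

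ACTTCCTGG was present in the promoters of Slfn1, Slfn2, Slfn3 and Slfn4, and in 0.843% of 32851 mouse promoters of the same length. Slfn1 and Slfn4 shared a run of 15 bases around it, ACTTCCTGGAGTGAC, which was in 2 promoters in all. The interferon-stimulated motif was present in Slfn5, Slfn8 and Slfn9 and in 3.44% of all promoters, in Slfn8 and Slfn9 as the reverse match TTTCGTTTTC. The interferon-gamma-activated motif TTCNNNGAA was in 8.3% of all promoters and in no member. A match is a description of letters and not evidence of binding.

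The files held 39537 cells, of which 34296 passed the filter, and libraries shared between 1 and 15 cell barcodes pairwise. Cells were assigned by marker genes, none of them a Schlafen gene, to macrophages (12709 cells), T/NK cells (1300) and MPNST cells (10940), while 8196 cells met no gate. The 12 macrophage markers summed to between 19979 and 25585 CPM (UMI counts scaled to a common total per tumor and class) in macrophages, 105 to 399 CPM in T/NK cells and 39.4 to 84.7 CPM in MPNST cells. Since these markers themselves set the gates, their separation is no independent check of the gates. Summed UMIs (unique molecular identifiers, 1 per counted RNA molecule) per tumor were 12409561 to 18478657 in macrophages, 544970 to 1273540 in T/NK cells and 14717146 to 64595966 in MPNST cells. Of 63 ways to split the libraries, the one with the least variation within sets in cell number, depth, genes per cell and mitochondrial and ribosomal shares (0.438 of the total, against 0.539 for the next) gave 2 sets. Cell number, median UMIs per cell and ribosomal share did not overlap between them, while genes per cell and mitochondrial share did. Set 1 held irradiated 1, control 2 and control 3, and set 2 held control 1 and irradiated 2, 3 and 4, so the sets and the groups overlapped in part.

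Most members were higher in the immune classes than in tumor cells. Slfn1 and Slfn2 were found in macrophages and T/NK cells and were close to absent from tumor cells, Slfn4 was high in macrophages alone of the 3 classes, and Slfn9 overlapped in level across the 3 classes. Class differences were tested with edgeR's quasi-likelihood test on counts summed per tumor and class, with the tumor as a block and Benjamini-Hochberg adjustment over 16961 genes. Many genes differ between such classes. Between macrophages and T/NK cells 4 of 7 members were higher in macrophages and 2 lower, where 34.2% of genes were higher, 25.8% lower and 59.9% either. Between macrophages and MPNST cells 6 of 7 members were higher in macrophages, where 34.7% of genes were higher, 47.5% lower and 82.1% either. T/NK cells exceeded MPNST cells for 5 of 7 members, where 28.5% of genes were higher, 44.7% lower and 73.2% either. In these fits the median log2 difference of all genes was 0.25, -0.26 and -0.41, in the same order.

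**Figure D1:**
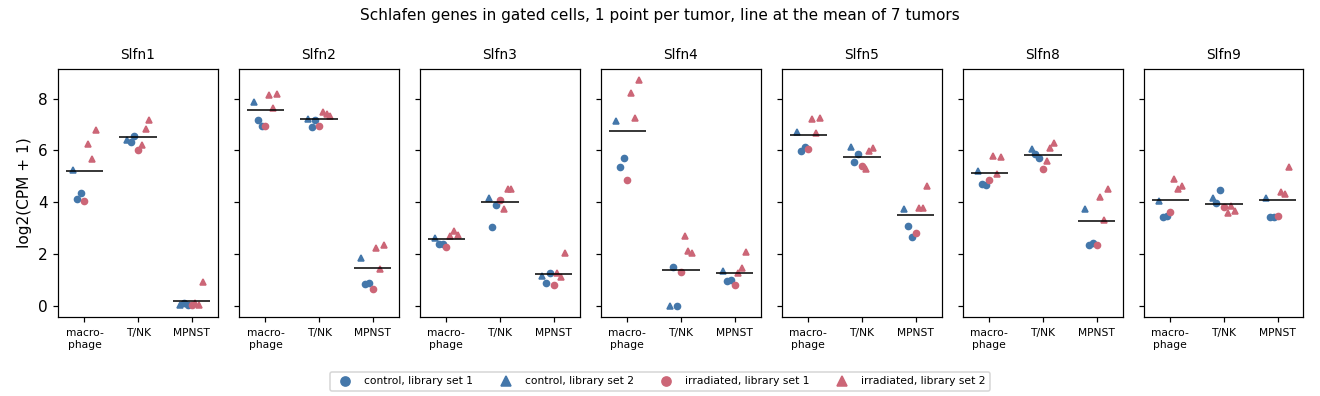
Level of each Schlafen gene as log2(CPM + 1) in macrophage-, T/NK- and MPNST-gated cells, 1 point per tumor (blue, control; red, irradiated; circles, library set 1; triangles, library set 2) with a line at the mean of 7 tumors. Slfn4 stands high in macrophages only among these 3 classes, Slfn1 and Slfn2 are low in MPNST cells, and the 3 classes overlap for Slfn9.

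Slfn4 was at 138, 40.6 and 50.7 CPM in macrophages of control tumors 1 to 3 and at 28.2, 296, 150 and 422 CPM in irradiated tumors 1 to 4. In T/NK cells 13 Slfn4 UMIs were counted in all, from 0 to 5.46 CPM per tumor, and in MPNST cells Slfn4 was between 0.759 and 3.19 CPM. Every tumor's macrophages were thus above every T/NK and MPNST value. The difference was 6.50 ± 0.45 (log2, SE) against T/NK cells (adjusted p = 1.79e-09) and 6.54 ± 0.27 against MPNST cells (adjusted p = 9.06e-13), while T/NK and MPNST cells differed by 0.05 (95% interval -1.45 to 1.54). Control tumors 1 and 3 had no Slfn4 UMI in T/NK cells, which allows up to 3.68 and 5.27 CPM, for counting error only.

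Slfn1 was at 84.7, 78.9 and 93.1 CPM in T/NK cells of control tumors and at 64.1, 72.3, 114 and 143 CPM in those of irradiated tumors. In macrophages it was at 36.9, 16.3 and 19.4 CPM in controls and 15.5, 74.7, 49.7 and 111 CPM in irradiated tumors, so the 2 classes overlapped. Macrophages were lower than T/NK cells by the fit (log2 difference -0.89 ± 0.29, adjusted p = 0.0158). This call was lost without control 2 (adjusted p = 0.0638), control 3 (0.062) or irradiated 1 (0.0507), and with cells from named clusters (0.16).

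Only 23 Slfn1 UMIs were counted in 10940 MPNST cells, from 0.0155 to 0.883 CPM. The fitted differences from MPNST cells were 8.86 ± 0.43 for macrophages and 9.74 ± 0.46 for T/NK cells (log2, SE). As a measure of macrophage RNA in other cells, 5 macrophage genes used in no gate (Cybb, Clec7a, Msr1, C3ar1, Clec12a), chosen after the members' values were seen, reached 0.176 to 0.344% of their macrophage level in MPNST cells. Slfn1 reached 0.0607 to 0.798% of its macrophage level there, a range that includes that of these genes. Slfn2 reached 0.476 to 1.43% and Slfn4 0.482 to 2.69%, above it in every tumor, and whether such RNA contributed was not tested. In T/NK cells the 5 genes reached 1.92 to 3.65% of their macrophage level. Slfn4 reached 0 to 5.17% of its macrophage level there, a range that includes theirs, and whether such RNA made up its T/NK counts was not tested.

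Slfn2 was at 232, 144 and 124 CPM in macrophages of controls and at 124, 278, 200.2 and 290 CPM in those of irradiated tumors. In T/NK cells it spanned 119 to 176 CPM and in MPNST cells 0.588 to 4.14 CPM. Macrophages exceeded T/NK cells by 0.73 ± 0.20 (log2, SE; adjusted p = 0.0039), with overlapping tumors, and MPNST cells by 7.06 ± 0.24 (adjusted p = 2.23e-14).

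Slfn3 was the member with the fewest UMIs, 1395 in all cells kept. T/NK cells held it at 7.34 to 22 CPM, macrophages at 3.79 to 6.47 CPM and MPNST cells at 0.743 to 3.13 CPM, and these ranges did not overlap. Macrophages were lower than T/NK cells by the fit (-1.27 ± 0.23 on the log2 scale, adjusted p = 5.89e-05) and higher than MPNST cells (2.20 ± 0.18, adjusted p = 3.45e-10).

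Among the long members, Slfn5 had its highest mean of the 3 classes in macrophages, with 62.7 to 154 CPM. Its range there met that of T/NK cells, at 38.2 to 70 CPM, while MPNST cells were at 5.26 to 23.8 CPM. Macrophages exceeded T/NK and MPNST cells by 1.23 ± 0.17 and 3.48 ± 0.15 on the log2 scale (adjusted p = 2.5e-06 and 2.16e-14). Slfn8 did not pass between macrophages, at 24.1 to 53.8 CPM, and T/NK cells, at 37.9 to 76.2 CPM (log2 difference -0.30, 95% interval -0.76 to 0.17). Both were higher than MPNST cells, where Slfn8 was at 4.07 to 21.6 CPM, by 2.26 ± 0.19 and 2.56 ± 0.23.

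Slfn9 was at 15.6, 9.78 and 10.1 CPM in macrophages of controls and at 11.2, 29.1, 22.1 and 23.7 CPM in those of irradiated tumors. In MPNST cells it was at 16.9, 9.81 and 9.71 CPM and at 10.1, 20.3, 19 and 39.9 CPM in the same order. The values of the 2 classes thus covered much the same range in host and tumor cells, and their difference was 0.28 (95% interval -0.06 to 0.62). Macrophages exceeded T/NK cells, at 10.9 to 21.1 CPM, by 0.67 ± 0.26 (adjusted p = 0.032), a call lost with DESeq2 size factors (adjusted p = 0.0941), with DESeq2's Wald test (0.194), with a gate of 5 markers (0.0513) and without irradiated 2, 3 or 4 (0.152, 0.113 and 0.0809). By CPM, macrophages were above T/NK cells in only 3 of 7 tumors, irradiated 2, 3 and 4, with means of 17.4 and 14.6 CPM over all tumors. The Slfn9 difference from MPNST cells passed without irradiated 4 (0.39, adjusted p = 0.0146) and with cells from named clusters (0.44, adjusted p = 0.0197), and T/NK cells were lower than MPNST cells without control 3 (-0.61, adjusted p = 0.0403). Of the exact runs of 90 bases in the last 500 bases of their transcripts, Slfn8 shared 9.49% and Slfn9 9.65% with the neighboring Slfn10-ps, so part of their counts is uncertain.

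**Figure D2:**
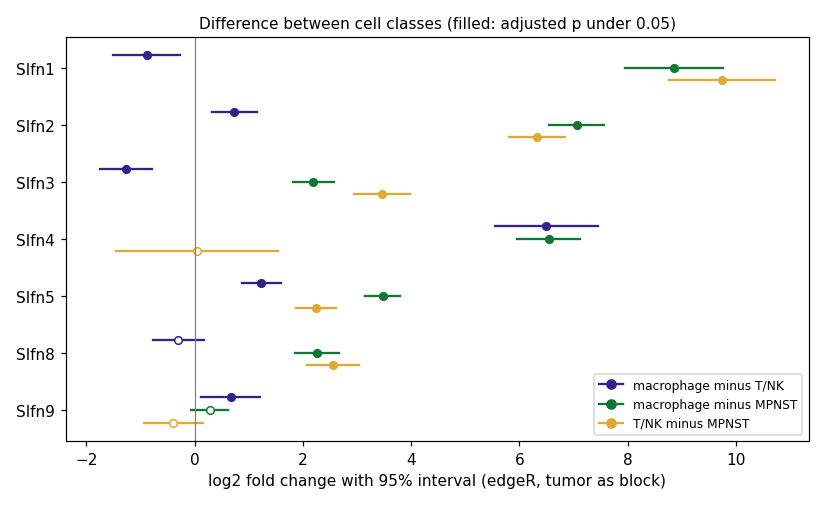
Log2 fold change between cell classes for each member (edgeR, 7 tumors, tumor as a block), with bars for 95% intervals and filled points for an adjusted p under 0.05. Slfn4 differs by 6.50 and 6.54 from macrophages to the other classes and by 0.05 between T/NK and MPNST cells, while the intervals of Slfn9 against MPNST cells include 0.

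In shares of cells, each cell was thinned to 2000 UMIs so that depth did not set the result, which left 11163 macrophages, 1002 T/NK cells and 10649 MPNST cells. Slfn2 had a UMI in 31.2% ± 9.2 of macrophages (SD, n = 7) and Slfn4 in 18.2% ± 13.8, against 61.5% and 34.3% without thinning. In MPNST cells the thinned shares were 0.438% for Slfn2 and 0.289% for Slfn4. Among thinned macrophages of irradiated tumor 4, Slfn1 was in 32.8% of 613 cells with Slfn4 and in 11.6% of 944 without. The share was higher in cells with Slfn4 in 7 of 7 tumors for Slfn1, Slfn2, Slfn5 and Slfn8. It was higher in 6 tumors for Slfn9 and in 5 for Slfn3, which is a description over cells of the same libraries. The same share was not computed for genes outside the family, so the pattern cannot be called particular to the members.

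Other gated cells were few and were not tested, and their pooled levels carry exact Poisson 95% intervals that cover counting error only. Slfn5 was found in stroma as well, at 202 CPM (188 to 216) in 480 endothelial cells, 218 CPM (200 to 238) in 270 fibroblasts and 142 CPM (124 to 161) in 177 pericytes. Xist, which the paper used as a mark of female host cells, had a UMI in 65.6% of fibroblast-gated cells. In endothelial and pericyte cells the share was 89.8% and 89.3%. Whether tumor cells entered the fibroblast gate was not tested. Slfn4 was at 1116 CPM (906 to 1360) in only 38 granulocytes and at 33.7 CPM (28.3 to 39.8) in endothelial cells. In the same granulocytes Slfn1 was at 376 CPM (259 to 528, 33 UMIs) and Slfn2 at 604 CPM (452 to 790, 53 UMIs). Dendritic cells held Slfn1 at 29.6 CPM (20.8 to 40.8). Slfn1 had 1 UMI in endothelial cells and none in fibroblasts or pericytes.

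Within macrophages, all 7 members had their highest mean in cells gated as monocyte-like by markers that include Ly6c2, Plac8, Ccr2, Hp and F13a1. Slfn4 was at 428, 400 and 380 CPM in monocyte-gated cells of controls and at 69.1, 692, 594 and 944 CPM in those of irradiated tumors. In macrophages gated on Mrc1 and C1q-associated genes (Mrc1, Folr2, Cd163, Cbr2, Gas6, Pf4) it was at 94.7, 22.8 and 31.4 CPM and at 24.7, 201, 111 and 206 CPM. The monocyte value was the higher in each of the 7 tumors.

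The Mrc1 C1q gate was lower than the monocyte gate for all 7 members, where 18.7% of 10086 genes were lower, 17.9% higher and 36.6% passed in either direction. Slfn1 was lower by the most, with a log2 difference of -2.70 ± 0.21, next to Slfn4 with -2.60 ± 0.34 and Slfn8 with -1.37 ± 0.13. The smallest difference was that of Slfn9, -0.70 ± 0.21, whose call (adjusted p = 0.0105) was lost without control 1 (0.0511) or irradiated 3 (0.0604). The Chil3 Arg1 gate needed at least 2 of Chil3, Arg1, Clec4e, Clec4d and Il1b, so a cell could enter it without Chil3 or Arg1. In this gate 3 members, Slfn1, Slfn2 and Slfn4, were higher than in the Mrc1 C1q gate, by 1.52 ± 0.22, 0.50 ± 0.09 and 1.25 ± 0.33. Of all genes, 11.3% were higher, 10.4% lower and 21.7% either. Against the monocyte gate 6 of 7 members were lower in the Chil3 Arg1 gate (5.32% of genes were lower, 4.36% higher and 9.69% either), Slfn9 being the exception (adjusted p = 0.0845). Of these calls, that of Slfn4 (-1.34 ± 0.35, adjusted p = 0.0191) was lost without control 1 (just above 0.05), control 3 (0.0572) or irradiated 3 (0.0853), and that of Slfn3 (-1.15 ± 0.32, adjusted p = 0.0211) without irradiated 2 (0.0933), while Slfn9 passed without control 2 (0.0459).

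Osteoclast-gated cells had the lowest mean of the 4 gates for every member. Monocyte-gated cells exceeded them for 7 of 7 members (25% of genes were higher, 27.7% lower and 52.7% either), by 3.24 ± 0.31 for Slfn1 and 1.16 ± 0.30 for Slfn9. The Chil3 Arg1 gate exceeded them for 5 members, all but Slfn3 and Slfn9 (21.6% of genes were higher, 22.1% lower and 43.7% either). The Mrc1 C1q gate exceeded them for Slfn2, by 0.28 ± 0.10, and Slfn8, by 0.47 ± 0.18 (21.5% of genes were higher, 24.6% lower and 46% either). The Slfn2 call was lost without control 2 (adjusted p = 0.0669) and the Slfn8 call without control 1, 2 or 3 or irradiated 3 (0.0711 to 0.0954).

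**Figure D3:**
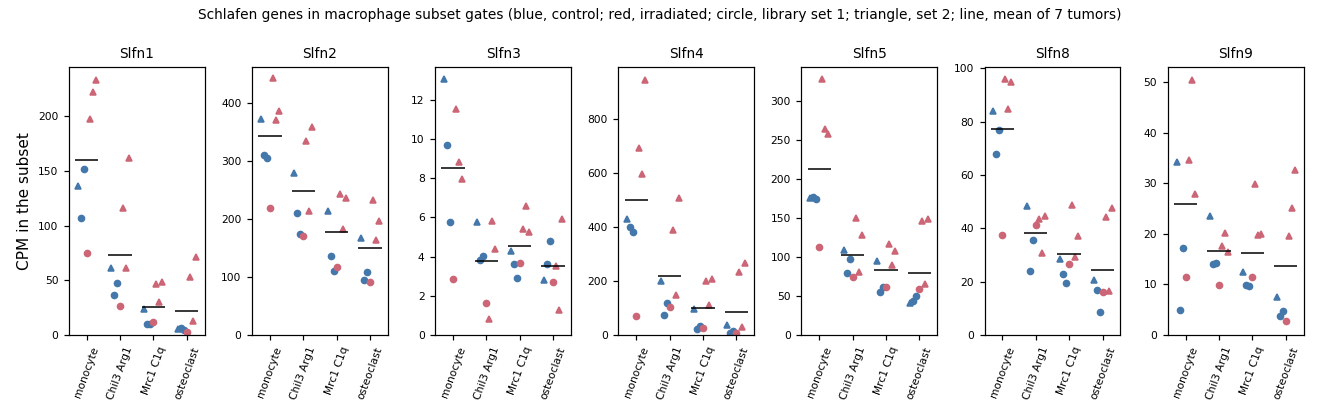
CPM of each member in 4 macrophage subset gates, 1 point per tumor (blue, control; red, irradiated; circles, library set 1; triangles, library set 2) with a line at the mean of 7 tumors. The mean is highest in the monocyte gate in every panel, and Slfn4 in irradiated tumor 1 is low there, at 69.1 CPM.

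Monocyte-gated cells made up 10.3, 3.93 and 4.67% of macrophages in control tumors 1 to 3 and 3.52, 12.6, 8.28 and 23.9% in irradiated tumors 1 to 4. Their share was above 8% in each library of set 2 and under 5% in each library of set 1. The gate counted markers without thinning, and median UMIs per macrophage were 3955 to 5597 in set 1 and 9594 to 12043 in set 2. Whether depth contributed to the share was not tested. In T/NK cells, 4 members could be tested between CD4, CD8 and Foxp3 gates, and none passed over the 5 to 7 tumors with at least 20 cells of a gate. Of 4924 genes, 13.1% passed between CD4 and CD8, 8.29% between CD4 and Foxp3 and 21.5% between CD8 and Foxp3 cells. The largest difference was that of Slfn2, 0.66 ± 0.25 higher in CD8 than in Foxp3 cells (adjusted p = 0.0584). The NK gate held 57 cells, under 20 in every tumor, and was not tested. Pooled over tumors, Slfn1 was at 10.8 CPM in NK cells (5 UMIs), against 119, 122 and 104 CPM in CD4, CD8 and Foxp3 cells. Slfn8 was at 56.3 CPM in NK cells, against 57.3, 57.2 and 69.9 CPM. Slfn9 was at 21.6 CPM, against 13.3, 7.86 and 17.7 CPM.

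No member passed between irradiated and control tumors in any class. Neither did any other gene in the edgeR quasi-likelihood test, so the background is 0% of 13208, 7519 and 16820 genes in macrophages, T/NK and MPNST cells. At an unadjusted p under 0.05 there were 836, 376 and 187 genes, and DESeq2's Wald test called 10, 0 and 0 genes, none of them a member. P-values measure the spread between these tumors, which the titles number as biological replicates.

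In macrophages the fitted log2 difference was above 0 for all 7 members, and for 48.5% of all genes tested. Slfn1 differed by 1.37 (95% interval -0.05 to 2.78), Slfn4 by 1.55 (-0.39 to 3.49) and Slfn9 by 0.85 (0.11 to 1.59), with adjusted p = 0.742 for each. The others were between 0.21 for Slfn3 and 0.58 for Slfn5. Irradiated tumor 1 lay below every control for Slfn1, Slfn2, Slfn3 and Slfn4, and irradiated tumors 2 and 4 lay above every control for all 7 members. The groups thus overlapped for every member, where 2.85% of genes had all irradiated tumors above all controls and 3.09% below.

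The macrophage levels followed the library sets. For all 7 members each of the 4 libraries of set 2 was above each of the 3 of set 1, which held for 15.4% of 13208 genes, and in MPNST cells for Slfn2, Slfn4, Slfn5, Slfn8 and Slfn9 (18.5% of 16820 genes). In T/NK cells it held for Slfn2 of the 6 members tested (6.73% of 7519 genes). Within set 1 irradiated minus control was -0.70 for Slfn4 and -0.22 for Slfn1 on the log2 scale, and within set 2 it was 0.96 and 1.03. With the set as a term the Slfn4 difference became 0.28, that of Slfn1 0.53 and that of Slfn9 0.46, and the others lay between 0.024 and 0.29. Set 1 held 1 irradiated tumor and set 2 held 1 control, so set and group cannot be fully told apart.

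**Figure D4:**
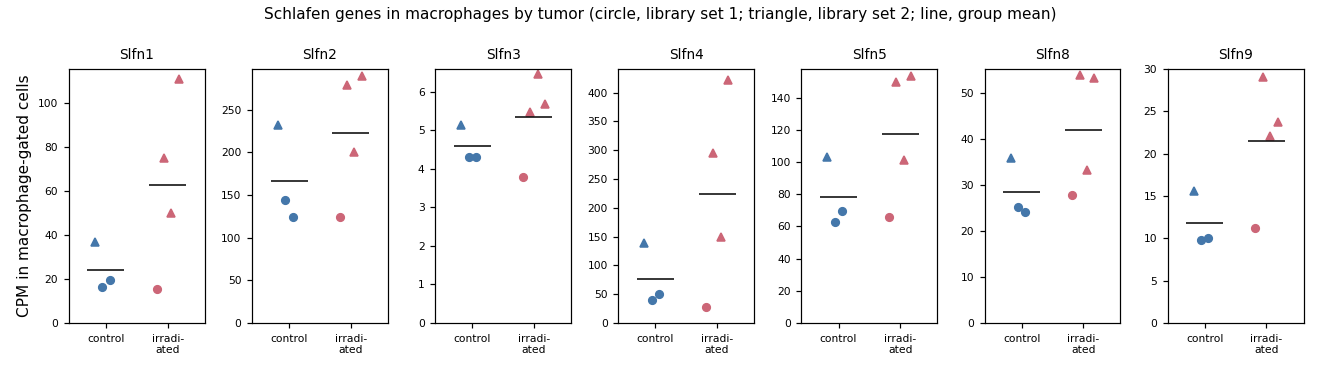
CPM of each member in macrophage-gated cells by group, 1 point per tumor (circles, library set 1; triangles, library set 2) with a line at the group mean. All triangles lie above all circles in each of the 7 panels, and the irradiated tumor of set 1 is the lowest of all for Slfn4, at 28.2 CPM.

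Without the monocyte and Chil3 Arg1 cells, an alternative added after seeing the data, the macrophage differences were 1.49 for Slfn4 and 1.29 for Slfn1, and again none passed. In single-cell sums, a higher level per cell and more cells of a high-level kind cannot be told apart beyond these gates.

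In T/NK cells the fitted differences lay between -0.57 and 0.41. Slfn9 was at 17.2, 14.7 and 21.1 CPM in control tumors and at 13.1, 10.9, 13.6 and 11.8 CPM in irradiated tumors. All 4 irradiated tumors were below all 3 controls, which held for 2.1% of 7519 genes, while 4.31% had them all above. The log2 difference was -0.57 (95% interval -1.28 to 0.15, adjusted p = 0.971), from 78 UMIs in all, and it was -0.40 within set 1 and -0.46 within set 2. Slfn4 did not pass the filter on low counts.

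In MPNST cells the 6 members that passed the filter differed by 0.28 to 0.83, with Slfn8 at 0.83 (95% interval -0.45 to 2.12) and Slfn9 at 0.78 (-0.09 to 1.65). Of all genes tested there, 46.7% were above 0. With the library set as a term Slfn8 was at 0.17, Slfn9 at 0.35 and the 6 members between -0.063 and 0.35. Slfn1 did not pass the filter. The groups overlapped for all 7 members, where 1.32% of genes had all irradiated tumors above all controls and 0.749% below. The difference between classes in the irradiated-minus-control change was tested as an interaction, and no member passed in any of the 3 pairs. Of 17619 genes, 0 passed between T/NK cells and macrophages, 1 (0.00568%) between MPNST cells and macrophages and 0 between MPNST and T/NK cells by edgeR, with 786, 922 and 840 at an unadjusted p under 0.05. For Slfn9 the change in T/NK cells minus that in macrophages was -1.42 ± 0.45 (log2, SE), with adjusted p = 1. For Slfn1 it was -1.07 ± 0.52, and it passed when every gene with at least 1 UMI was kept (-1.04, adjusted p = 0.0434). That setting called 92 genes for this pair, where the main fit called 0, so the call came with a rise in calls over all genes.

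**Figure D5:**
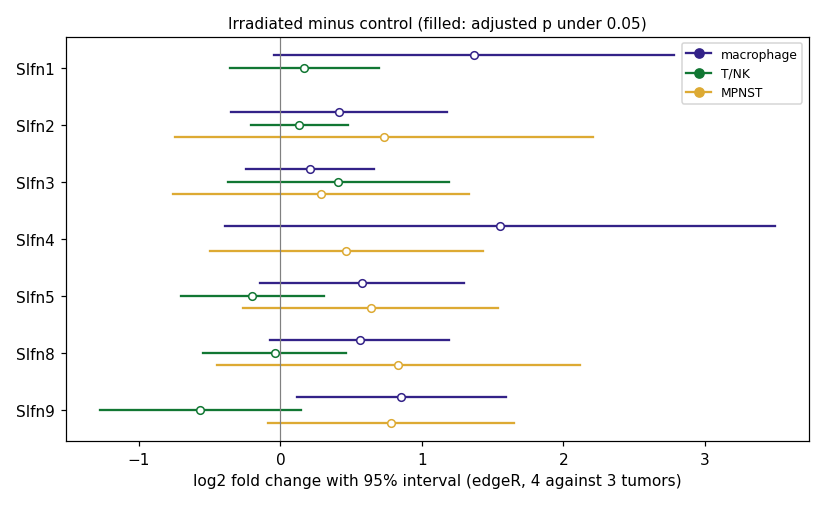
Log2 fold change of irradiated against control tumors for each member in macrophages, T/NK and MPNST cells (edgeR, 4 against 3 tumors), with bars for 95% intervals and filled points for an adjusted p under 0.05. No point is filled, and only the macrophage interval of Slfn9 leaves out 0, before adjustment over all genes.

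The type I interferon response genes had fitted differences of the same sign as the members in macrophages and MPNST cells, and none passed. Of 31 type I interferon response genes, 31 had a fitted difference above 0 in macrophages (median 0.91). Over all genes tested there, 48.5% were above 0, with a median of -0.01. In T/NK cells 24 were above 0 (median 0.20), against 49.7% of all genes (median -0.002). In MPNST cells 31 were above 0 (median 0.91), against 46.7% of all genes (median -0.01), and 0 passed in each class. The mean level of these genes followed the library sets in each class, as given below. In macrophages the largest were Isg20 with 1.15 ± 0.50, Mx1, an antiviral GTPase, with 1.10 ± 0.44 and Zbp1, a nucleic acid sensor, with 1.04 ± 0.46. Of 7 interferon receptors and kinases, 5 were above 0 in macrophages with a median of 0.05, and of the T cell quiescence genes 5 of 14 were above 0 in T/NK cells with a median of -0.10, and 0 passed.

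Between classes, 11 of the 31 interferon response genes were higher and 4 lower in macrophages than in T/NK cells, where 34.2% of all genes were higher and 25.8% lower. Macrophages exceeded MPNST cells for 27 of them, with 0 lower (34.7% and 47.5% of all genes), and T/NK cells exceeded MPNST cells for 24, with 1 lower (28.5% and 44.7%). Of the 14 quiescence genes, 2 were higher and 8 lower in macrophages than in T/NK cells, 9 higher and 4 lower in macrophages than in MPNST cells, and 10 higher and 1 lower in T/NK than in MPNST cells. Of the 7 receptors and kinases the same counts were 3 and 4, 7 and 0, and 6 and 1.

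The mean log2 CPM of the interferon genes in macrophages was 6.31, 5.43 and 5.54 in control tumors 1 to 3 and 5.67, 6.92, 6.43 and 7.15 in irradiated tumors 1 to 4. In each class the score separated the tumors into the same library sets, with 5.43 to 5.67 in set 1 and 6.31 to 7.15 in set 2 for macrophages. Since the tumors fell into sets of 3 and 4, no correlation of the members with the score over tumors is given.

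Over the 21 sums of tumor and class, which share libraries and in which class differences dominate, the genes most like Slfn8 among 10829 compared were Trim30a (Pearson's r = 0.986), Usp18 (0.984) and Ifi206 (0.98). Those most like Slfn9 were Gbp2 (0.794), Eif2ak2 (0.793) and Cxcl10 (0.772). For Slfn1 they were Ifi209 (0.991), Zcchc2 and Psd4, for Slfn2 Itgb2 (0.988), Rgs1 and Ms4a4c, and for Slfn4 they included Necap1 (0.96) and Szrd1. For Slfn3 they were L1cam (0.973), H2-T10 and F730043M19Rik, and for Slfn5 Inpp5k (0.973), Slc16a3 and B4galt5.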

How the data were processed

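Tumors were dissociated with papain and 10000 cells per library were loaded for 10x Chromium 3' v3.1 sequencing. The authors deposited UMI counts per gene and cell, aligned to mm10 with Cell Ranger. The matrix headers name version 8.0.0, and the study's methods name another. The members and gene lists were chosen with earlier results of these data known. Cells beyond 3 median absolute deviations in UMIs, genes, mitochondrial or ribosomal share were removed. A gate needed at least 3 markers of a list and 2 times the share of markers of other lists, and MPNST cells no Xist UMI. For MPNST cells that fold was limited to 6 lists after gated cell numbers were seen. Doublets were kept (Scrublet called 735 cells). Sums over the cells of each tumor and class were tested in edgeR 4.0.16 (R 4.3.3, filterByExpr, TMM) with Benjamini-Hochberg adjustment at 0.05, and intervals use the t distribution. DESeq2 1.42.0, other gates, filters and terms were alternatives, with clusters from scanpy 1.11.5 and leidenalg 0.10.2. Named genes were all members, the 3 genes of each list with the largest difference in a class, of which the macrophage interferon genes are printed, and the 3 genes most like each member; some items are not reported here. The fits were tested on simulated data. A planned correlation with the interferon score was computed, passed for most relations and is not given, since the score split the tumors into the library sets. A contrast between the library sets was fitted once, passed for some members in macrophages and is not given, since the sets were defined from the data.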

Additional observations from a re-analysis of the deposited data

Results flagged for a closer look

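Slfn1 in MPNST cells of irradiated tumor 4 was at 0.883 CPM, far from the other irradiated tumors, which were at or under 0.0919 CPM. The value rests on 13 of the 23 Slfn1 UMIs in MPNST cells. Of 21 groups of 4 irradiated tumors examined (7 genes in 3 classes), 1 stood apart in this way, and chance gives about 1 in 20. The cause was not tested.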

How the results depend on the processing

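No member passed between irradiated and control tumors under any alternative run. The number of genes called there became 10 in macrophages with DESeq2, 53 in T/NK cells with every gene of at least 1 UMI kept and 1 in T/NK cells with the library set as a term. The interactions called 92 (T/NK minus macrophage), 367 (MPNST minus macrophage) and 64 genes (MPNST minus T/NK) with every gene kept. Leaving out 1 tumor gave 0 to 3 genes for T/NK minus macrophage and 0 to 279 for MPNST minus macrophage, both highest without irradiated 1. It gave 533 to 922 for Chil3 Arg1 minus monocyte and 409 to 675 for CD4 minus CD8, both lowest without irradiated 3. The causes were not tested.

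Log2 differences that turned sign had not passed. Irradiated minus control in T/NK cells became -0.12 for Slfn1 with the replicate block, and 0.040 for Slfn5 and 0.081 for Slfn8 with named clusters. In MPNST cells it became -0.063 for Slfn2 with the library set as a term and -0.17 for Slfn3 with the replicate block. Macrophage minus T/NK became 0.038 for Slfn8 with named clusters. T/NK minus MPNST for Slfn4 became -0.035 with every gene kept, -0.023 with 5 markers and -0.044 with no cell filter.

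Without 1 tumor, irradiated minus control ran from -0.082 to 0.31 for Slfn1 and -0.22 to 0.10 for Slfn8 in T/NK cells, and from -0.15 to 0.56 for Slfn3 in MPNST cells. T/NK minus MPNST ran from -0.33 to 0.28 for Slfn4. The T/NK minus macrophage interaction ran from -0.031 to 0.44 for Slfn3 and -0.39 to 7.57 for Slfn4. T/NK cells of controls 1 to 3 held 0, 1 and 0 Slfn4 UMIs, so this Slfn4 range is no measure of the size of a change. The MPNST minus macrophage interaction ran from -0.86 to 1.17 for Slfn1, -0.32 to 0.28 for Slfn3, -0.15 to 0.15 for Slfn5 and -0.37 to 0.036 for Slfn9. MPNST minus T/NK ran from -0.48 to 0.034 for Slfn3. Chil3 Arg1 minus Mrc1 C1q ran from -0.15 to 0.20 for Slfn9, and Chil3 Arg1 minus osteoclast from -0.014 to 0.43 for Slfn3. CD4 minus CD8 ran from -0.087 to 0.047 for Slfn1 and -0.45 to 0.20 for Slfn8, CD4 minus Foxp3 from -0.55 to 0.29 for Slfn5, and CD8 minus Foxp3 from -0.68 to 0.36 for Slfn8.

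The tumors were tested without pairing by replicate number. Same-numbered tumors 1 to 3 correlated in their deviations at -0.394, -0.203 and -0.0396 in macrophages. The values were -0.205, 0.00902 and -0.0377 in T/NK cells and -0.379, -0.044 and 0.164 in MPNST cells. The replicate block left 0 genes called in each class, as did the fit without it, so that count cannot tell paired from unpaired tumors. T/NK sums rest on 116 to 243 cells per tumor.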
